A study of Mus musculus with 32 samples.

Results

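Many genes of the mouse genome still carry a working name: Gm followed by a number for a predicted gene model, or a clone number ending in Rik for a gene first seen as a full-length cDNA at RIKEN. Described here are the chromatin-bound transcripts with such names that differed between H1-TKO and wild-type (WT) mouse embryonic stem cells. They were chosen by name alone, as every entry of the authors' deposited table whose gene name is Gm plus digits or ends in Rik, whatever its class. This gave 173 of 5723 listed transcripts under 112 names, 59 transcripts under 39 Gm names and 114 under 73 Rik names. The other 5550 transcripts carried 3358 other names.

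H1-TKO embryonic stem cells (histone H1 triple knockout, called TKO here) lack 3 genes for linker histone H1, which sits on the nucleosome and the DNA between nucleosomes. They were set against WT embryonic stem cells, grown in serum with LIF like the TKO cells; the labels do not say how many clones the TKO cells come from, nor whether replicates are separate cultures. cheRNA is the RNA that stays with the chromatin pellet when nuclei are extracted with urea and detergent, and it was sequenced with strand information from 3 TKO and 3 WT samples. MapR uses catalytically inactive RNase H fused to micrococcal nuclease (RNH) to release DNA at R-loops, sites where an RNA pairs with 1 DNA strand and displaces the other. It was done in 2 TKO and 2 WT libraries, with 1 control library per genotype made with the nuclease alone (MNase only).

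For cheRNA the authors' deposited table gives a single log2 fold change per transcript. It holds no value per sample, no p-value and no transcript below an absolute log2 of 1.00, so it shows neither replicate spread nor unchanged transcripts, and nothing below is a test between genotypes. The table does not say which genotype is on top of the ratio. The transcripts of Hist1h1c, Hist1h1d and Hist1h1e, known to be the genes knocked out in this line, were turned to read lower in TKO (log2 -3.61, -5.02 and -4.83). All log2 values below are from the authors' deposited table with that sign, TKO over WT, and the direction rests on this inference. None of 10 pluripotency markers (Pou5f1, Nanog, Esrrb and others) was listed as a changed gene transcript. Of 8 fibroblast markers only Vim was listed (log2 2.25); the part of such cells in the results was not tested. In such bulk samples, fewer cells that make a transcript and less RNA per cell cannot be told apart.

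Predicted models and clone genes are a mixed group. Some were later given a function and a name, some encode proteins of unknown role, and some are long non-coding RNAs or pseudogenes. Many Rik genes were cloned from testis, where a broad set of genes is transcribed, and testis clones have their own number prefixes. In the table a name can stand for a transcript of the gene itself or for a transcript in another position: intergenic, antisense within the gene, bidirectional from its promoter, or on its 5′ side.

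The word uncharacterised fitted the annotation only in part. RefSeq (GRCm38.p6) held 109 of the 112 names, and the other 3 were joined names of a pair of genes. Of the 109, 106 were protein coding, 2 were long non-coding RNAs (Gm15816 and 2410124H12Rik) and 1 was a transcribed pseudogene (4930453H23Rik). For 32 of them, 11 Gm and 21 Rik, the name in the table was an older synonym of a gene with another symbol. Among these were Radx (D330045A20Rik), a replication fork protein that binds single-stranded DNA; Spring1 (2410131K14Rik), a regulator of the SREBP lipid pathway; Epop (E130012A19Rik), a partner of Polycomb repressive complex 2 and elongin; and 4 histone variant genes. GENCODE M21, matched by symbol, held 92 names and called 84 protein coding.

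The promoters printed here belong to members that the results below turn on: the gene with the highest transcript, a gene lower in all its listed pieces, the name with the most listed transcripts, and a gene start with an R-loop peak in every library. They are RefSeq sequences of GRCm38.p6, 250 bases before to 50 after the gene start, 5′ to 3′ on the gene's strand, with CG dinucleotides in capitals.
2300002M23Rik, chr17:35567235-35567534, plus strand: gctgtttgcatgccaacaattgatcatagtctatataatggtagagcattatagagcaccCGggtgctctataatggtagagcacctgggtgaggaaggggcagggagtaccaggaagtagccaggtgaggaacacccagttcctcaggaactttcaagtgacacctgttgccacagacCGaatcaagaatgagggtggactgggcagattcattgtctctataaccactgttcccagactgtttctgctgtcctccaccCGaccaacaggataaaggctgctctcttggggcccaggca
D330045A20Rik (Radx), chrX:139480117-139480416, plus strand: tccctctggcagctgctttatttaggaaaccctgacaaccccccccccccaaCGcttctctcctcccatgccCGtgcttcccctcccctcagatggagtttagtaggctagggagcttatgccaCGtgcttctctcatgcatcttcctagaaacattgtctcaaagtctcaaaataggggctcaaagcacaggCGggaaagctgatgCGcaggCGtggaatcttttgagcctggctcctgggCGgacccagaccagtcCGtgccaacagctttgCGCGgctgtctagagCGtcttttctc
Gm5148, chr3:37724311-37724610, minus strand: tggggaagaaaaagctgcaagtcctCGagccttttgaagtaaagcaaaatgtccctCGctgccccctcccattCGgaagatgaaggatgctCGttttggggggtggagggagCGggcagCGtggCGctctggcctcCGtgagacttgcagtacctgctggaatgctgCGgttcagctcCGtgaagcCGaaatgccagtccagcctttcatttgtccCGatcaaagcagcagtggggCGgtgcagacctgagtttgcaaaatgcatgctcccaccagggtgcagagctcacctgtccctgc
0610009B22Rik, chr11:51688585-51688884, minus strand: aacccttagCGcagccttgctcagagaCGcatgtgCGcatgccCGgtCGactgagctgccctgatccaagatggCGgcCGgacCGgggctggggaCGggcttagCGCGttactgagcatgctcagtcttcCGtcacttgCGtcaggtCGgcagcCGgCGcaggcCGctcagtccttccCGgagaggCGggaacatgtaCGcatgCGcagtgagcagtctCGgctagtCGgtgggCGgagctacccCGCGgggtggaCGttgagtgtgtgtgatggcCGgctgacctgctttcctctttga
They hold 3, 11, 13 and 28 CG dinucleotides in that order. Of the 32851 promoters in the RefSeq table, 76.7% hold at least as many as 2300002M23Rik, 41.4% as many as Radx, 37.9% as many as Gm5148 and 14.2% as many as 0610009B22Rik.

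Of the 173 Gm and Rik transcripts, 110 were higher in TKO (63.6%, exact binomial interval 55.9 to 70.8%) and 63 were lower. The share of all listed transcripts that were higher was 60.1%, inside that interval, and 39.9% were lower. The interval treats each transcript as separate, although many belong to 1 locus. Of Gm transcripts 62.7% were higher and of Rik transcripts 64.0%. The median log2 was 1.45 over Gm and Rik transcripts and 1.38 over other names. Higher transcripts had a median of 2.48 and lower ones of -1.85, against 2.23 and -1.74 for other names. A change of at least 4-fold was listed for 96 of the 173, or 55.5%, and for 50.8% of all listed transcripts.

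The classes differed more than the total. Of 62 gene transcripts, which lie on the strand of the named gene, 37 were higher (59.7%, interval 46.4 to 71.9%), where 45.0% of all gene transcripts were, and 25 were lower (class 55.0%). Of 91 intergenic transcripts, 58 were higher (63.7%, interval 53.0 to 73.6%), where the share over all intergenic transcripts was 74.0%. The share thus lay above the background for gene transcripts, with the background outside the interval. For intergenic ones it lay below, with the background just past the upper bound. Off chromosome X, a split made after the values were seen, 53 of 74 intergenic transcripts were higher (71.6%), near the 74.0% of the class. On X 5 of 17 were higher (29.4%). All 8 antisense transcripts were higher, against 86.6% over the class. Of 3 bidirectional transcripts 2 were higher (class 85.4%), and of 9 transcripts on 5′ sides 5 were higher (class 66.4%), counts too small to set against their class. The make-up also differed: 52.6% of Gm and Rik transcripts were intergenic and 35.8% were gene transcripts, against 33.3% and 51.2% of transcripts with other names.

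**Figure D1:**
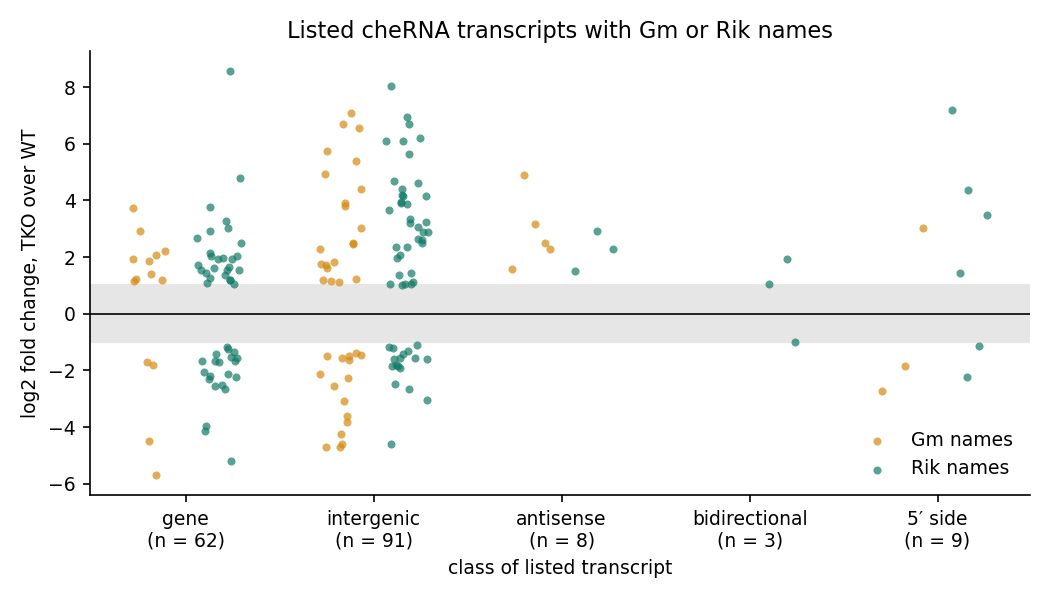
Each point is 1 listed Gm (orange) or Rik (green) transcript, placed by class on the x axis and by log2 fold change of TKO over WT in the authors' deposited table on the y axis; the grey band marks values under 1 in size, which the table does not hold. Points reach 8.57 upwards and -5.70 downwards, and all 8 antisense transcripts lie above 0.

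**Figure D2:**
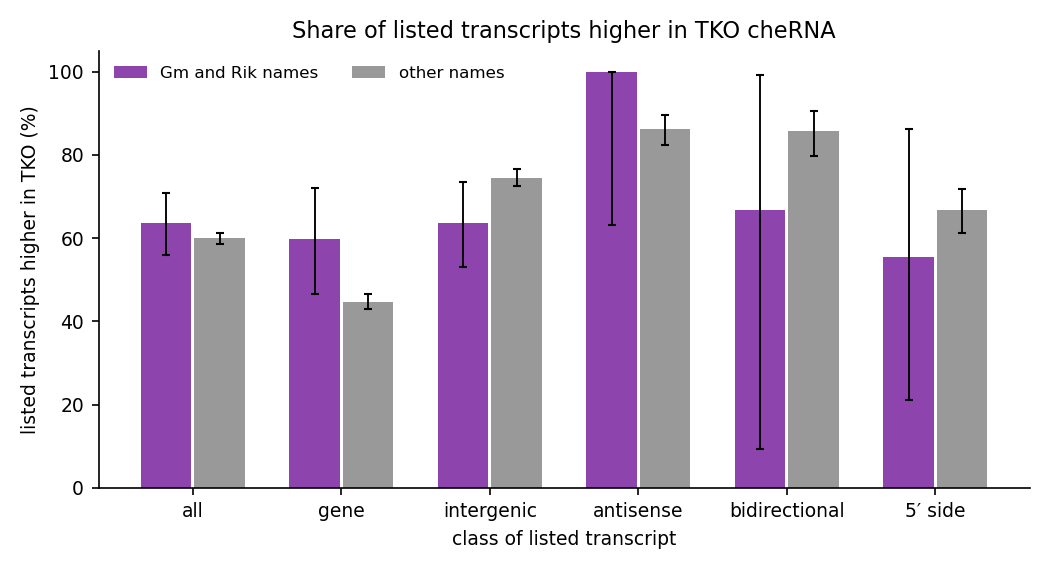
Bars give the percent of listed transcripts higher in TKO, for Gm and Rik names (purple) and other names (grey), over all classes and per class; lines are exact 95% binomial intervals. Gm and Rik gene transcripts stand at 59.7% against 44.7% for other names, and intergenic ones at 63.7% against 74.5%.

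An intergenic entry is only loosely tied to the gene it is named after. Of the 91, 89 had a named gene in RefSeq, 15 overlapped it, and those that stood apart lay a median of 55027.5 bp away, at most 757079 bp. Only 34 lay on the gene's strand, and 41 lay in no GENCODE gene at all. Statements on intergenic entries below are therefore about a place in the genome, and not about the named gene unless an overlap on its strand is stated.

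The highest value belonged to 2300002M23Rik on chromosome 17, a coding gene of 1461 bp. The authors' deposited table lists its gene transcript (chr17:35567485-35570742, plus strand) at log2 8.57, or 379.9-fold higher in TKO, and the stretch on its 5′ side (chr17:35564055-35567483) at 7.21. The pair adjoin on 1 strand and reach from before the annotated start to past the annotated end. No RNH peak lay within 1 kb of its start in any library. The nearest listed entry of another name, an intergenic one named after Gm9573 and 22759 bp away, was also higher (log2 3.03).

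Next came an intergenic transcript named after 9430038I01Rik (chr7:137421808-137425872), at log2 8.02 in the authors' deposited table, 9566 bp from the gene and on the other strand. An intergenic transcript named after 1500009L16Rik stood at 6.93 and a second at 4.40, far from the gene (252983 and 244620 bp). The gene transcript of 1500009L16Rik itself had a log2 of 1.54 in the authors' deposited table. So the large values of that name were not those of the gene. Of the gene transcripts, the next after 2300002M23Rik were A630023A22Rik at 4.80, with its 5′ side at 4.37, and 1700010I14Rik at 3.77. The highest antisense transcript was that within Gm884 on chromosome 11, at 4.91, followed by those within Gm5134 (3.16) and C030039L03Rik, now Zfp607b, a zinc finger gene (2.92).

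The name with the most entries was Gm5148, with 7 intergenic transcripts, all higher. The authors' deposited table gives them log2 values of 4.42, 4.92, 5.40, 5.76, 6.56, 6.71 and 7.07. They lie in a row on the plus strand over 156708 bp of chromosome 3 (chr3:37715797-37872504), while Gm5148 lies on the minus strand at the near end of the row. The nearest listed entry of another name, at 3932 bp from the first of the 7, was higher too (log2 4.71). It is an intergenic entry named after Spry1, which encodes an inhibitor of receptor tyrosine kinase signalling, and need not be a transcript of that gene. The 5 next names by number of entries split by direction. A430078G23Rik, a synonym of Arhgef18, had 4, all higher: a pair of gene transcripts at 1.94 and 1.93 and a pair on the other strand, called intergenic, at 6.09 and 6.08. The table also lists an entry under the name Arhgef18, at 4.83.

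The lower side was led by Gm15816 on chromosome 8, one of the long non-coding RNAs, with a gene transcript at log2 -5.70 in the authors' deposited table (chr8:23138105-23149585, minus strand, 51.9-fold lower in TKO). It lies opposite Ank1, which encodes the membrane skeleton protein ankyrin-1. An entry under the name of its other neighbour, Gpat4, an enzyme of glycerolipid synthesis, was listed at -1.37. The other long non-coding RNA, 2410124H12Rik, was listed higher, at 1.45 for its gene transcript and 1.45 for its 5′ side.

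Radx was lower in all its listed pieces, which reach from its start to its end. The authors' deposited table splits it into 6 gene transcripts at log2 -2.22, -2.65, -2.53, -2.21, -5.20 and -2.29, in order from the start. They run over 74411 bp (chrX:139480368-139554778), about the extent of the RefSeq gene, which is 74218 bp long. The pieces themselves add up to 47014 bp, and the stretches between them have no listed value. The value of -5.20 came from a piece of 610 bp, and the other 5 pieces lay between -2.65 and -2.21. A830018L16Rik, a coding gene of 562288 bp on chromosome 1, likewise had 6 gene transcripts, all lower, at -1.16, -1.42, -1.51, -4.13, -1.68 and -2.56 from the start on. There too the extreme value came from a short piece (1275 bp), and the longest piece, of 195851 bp, had the smallest change. The nearest listed entries of other names were lower as well, under the name Rnf128 at -2.74 beside Radx and Prex2 at -2.10 beside A830018L16Rik.

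Gm14725 on the X chromosome had 4 intergenic transcripts between -4.70 and -3.09, in a row on its own strand but 164301 to 228391 bp away. Gm9992, now Unc93a2, had a gene transcript at -4.49 and intergenic ones at -3.83, -2.28 and -1.63 in the authors' deposited table. The entry at -3.83, though called intergenic, overlaps Unc93a2 on its strand and lies within it. An intergenic transcript named after 1810011O10Rik, now Tcim, a regulator of transcription, stood at -4.61, 23825 bp from that gene and on the other strand.

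Entries of 1 name mostly shared their direction. Of the 112 names 36 had several entries, 97 transcripts in all; 24 names were higher throughout, 10 lower throughout and 2 mixed (E030030I06Rik and 2700062C07Rik). That is 94.4% in a single direction, against 88.7% of names of other kinds with several entries. Some of this is built in. Gene and 5′-side entries of a name, as at 2300002M23Rik, carry the same transcript number and adjoin at the annotated start. Their shared direction is not agreement between separate transcripts. At E030030I06Rik the antisense transcript was higher (2.30) and the transcripts at the promoter lower (-1.15 for the 5′ side). A listed transcript of another name lay within 50 kb of 48 of the 173, and 42 of the 48 (87.5%) had the same sign, against 84.9% for transcripts with other names. Counted by name instead of by transcript, 66.1% of Gm and Rik names were higher by their median, against 62.2% of other names.

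**Figure D3:**
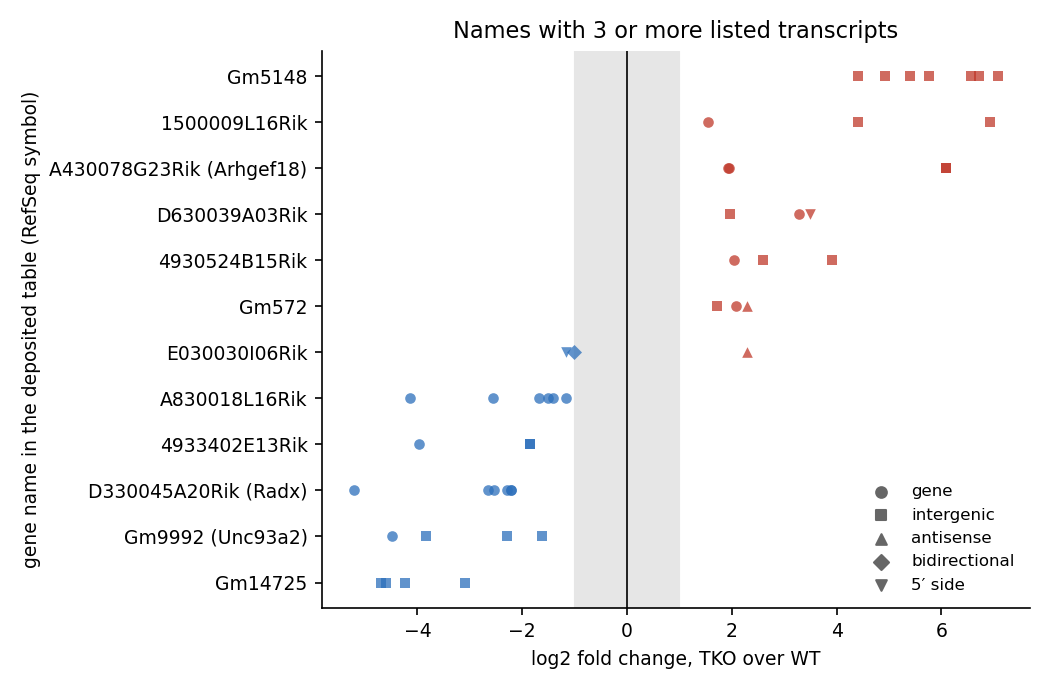
Rows are the Gm and Rik names with 3 or more listed transcripts, ordered by median, with the RefSeq symbol in brackets where it differs; each mark is 1 transcript at its log2 fold change of TKO over WT, red if higher and blue if lower, with its shape giving the class. All marks of a row lie on 1 side of 0 except for E030030I06Rik, and Gm5148 has 7 marks from 4.42 to 7.07.

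On 16 of the 18 chromosomes with Gm or Rik transcripts, the share higher in TKO was above that of other names, with no test made; several of these rest on few transcripts, as chromosomes 13 and 15 have 1 each, 5 has 3, 2 has 4 and 18 has 5. The exceptions were chromosomes 1 and X. On chromosome X 19 of 24 were lower (20.8% higher), against 64.9% higher for other names on that chromosome. Among intergenic X transcripts alone the gap was smaller, with 29.4% of 17 higher against 51.5% of 66. All 7 X gene transcripts of Gm and Rik names were lower, but came from 2 names, where 72.3% were higher for other names. By name the X count was 4 higher and 7 lower, and 10 of the 19 lower transcripts were the pieces of Radx and Gm14725. On chromosome 1 15 of 22 were lower (31.8% higher), against 54.2% higher for other names; these 15 came from 8 names, with 6 from A830018L16Rik alone. On chromosome 11 all 14 were higher, where 88.0% of other names were. Without chromosome X the share higher over all Gm and Rik transcripts was 70.5%, against 59.8% for other names, and the median log2 was 1.65. That setting was chosen after the values were seen.

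**Figure D4:**
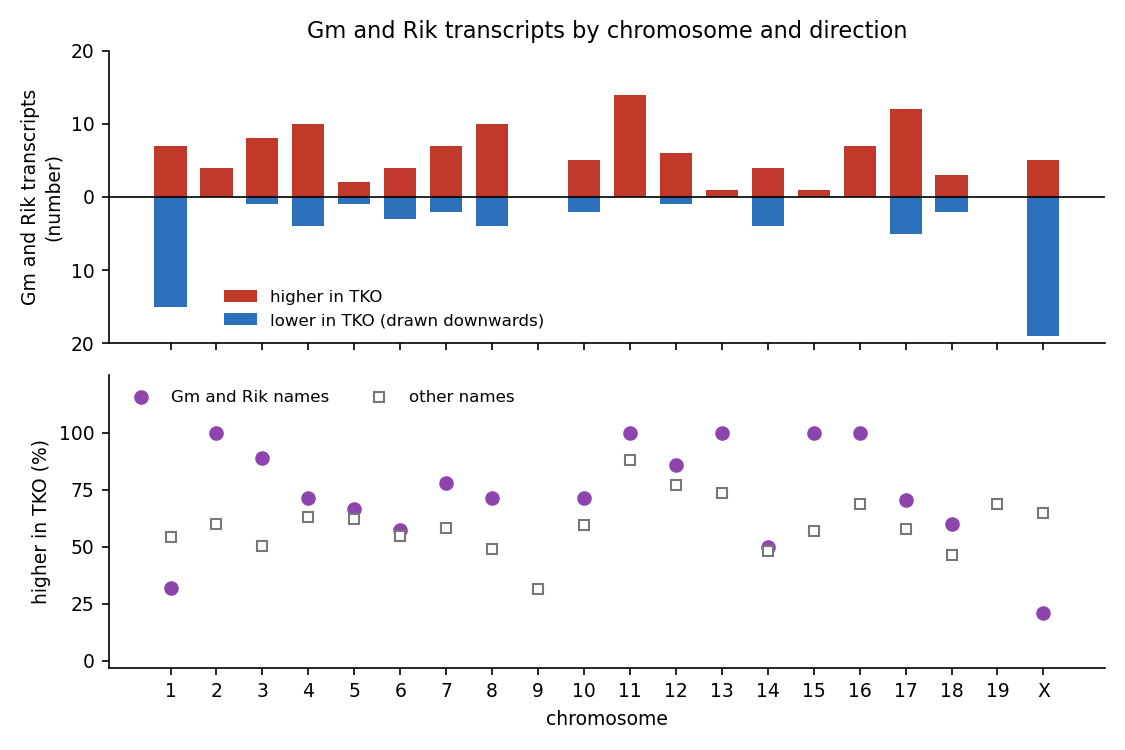
The upper panel counts Gm and Rik transcripts per chromosome, higher in TKO upwards in red and lower in TKO downwards in blue; the lower panel gives the percent higher for Gm and Rik names (purple) and other names (open squares). Chromosomes 1 and X have more lower than higher Gm and Rik transcripts, 15 of 22 and 19 of 24, and chromosomes 9 and 19 have none.

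The X entries outside Radx were mostly intergenic, and some carry the names of male germ line genes. The pair named after Gm14920 (H2ab1, an H2A.B histone variant of the testis) stood at -4.70 and -3.60, 80834 and 92271 bp from the gene, and that named after Gm14483 (H2al1a, an H2A variant of late spermatids), 154584 bp from it, at -2.13. One named after Gm595 (Fsip2l, a gene related to that of a sperm tail protein), 22830 bp from it, was higher, at 2.47. On autosomes the gene transcript of Gm12260 (H3f4, histone H3.4) stood at 3.74 and an intergenic transcript named after 1700024P04Rik (H2bl1, an H2B variant) at 3.05. So the 4 histone variant names, picked after their values were seen, divided into 2 higher and 2 lower, and a single one was a transcript of the gene itself. The pseudogene name 4930453H23Rik, also on X, had intergenic transcripts at 6.69 and 6.21, the reverse of most X entries.

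Names from testis clones gave 36 transcripts, 21 higher and 15 lower; their 58.3% higher is near the 60.1% of all listed transcripts. The clone groups were counted with the values known. Of their 8 gene transcripts 7 were higher, where 45.0% of all gene transcripts were, from 1700010I14Rik at 3.77, 1700093K21Rik at 2.66, 4930524B15Rik at 2.05 and 4930544D05Rik at 1.95 downwards. The exception was 4933402E13Rik on X, at -3.97 in the authors' deposited table. Their 26 intergenic transcripts divided evenly, 13 higher and 13 lower, where 74.0% of all intergenic transcripts were higher. The names from embryonic stem cell clones were Spring1 and 2410124H12Rik, with 3 transcripts, all higher, too few to set against the 60.1%; that of Spring1, at 5.63, was intergenic, 21241 bp past the gene.

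One lower intergenic entry held microRNAs. The transcript named after 4930578C19Rik (now Dipk2b), chrX:19143033-19185946 on the minus strand, 681614 bp from that gene, contained the hairpins of Mir221 and Mir222 on the same strand. It was listed at log2 -1.58, and a second piece at higher coordinates, which is upstream on that strand, at -1.55. The RefSeq mature sequences are shown because they identify the RNA this entry can give rise to; capitals mark the seed, bases 2 to 8, and the 3p arms share theirs.
mmu-miR-221-3p, chrX:19146307-19146329: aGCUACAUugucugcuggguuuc
mmu-miR-222-3p, chrX:19146901-19146923: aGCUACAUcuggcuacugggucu
mmu-miR-221-5p, chrX:19146344-19146369: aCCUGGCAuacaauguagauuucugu
These microRNAs are known for repressing cell cycle inhibitors of the Cip/Kip family. cheRNA libraries of this kind do not measure mature microRNAs.

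By median, higher Gm and Rik transcripts were richer in G and C than lower ones. The median GC content was 45.3% in the 110 higher and 41.7% in the 63 lower transcripts, a difference of 3.66 percentage points, against 0.25 for other names (45.2% and 44.9%). In intergenic entries alone it was 45.0% in the 58 higher and 40.4% in the 33 lower, a difference of 4.67 points, and for intergenic transcripts of other names it was 44.8% and 43.0%, a difference of 1.82 in the same direction. Gm and Rik names hold more intergenic transcripts, and whether the differences themselves differ was not tested. The interquartile ranges overlapped, 42.8 to 48.0% in higher and 38.3 to 46.0% in lower transcripts, and pieces of 1 gene share their composition. Of the 63 lower transcripts, 19 lie on chromosome X, with 34.4 to 44.8% GC, and 6 are pieces of A830018L16Rik, with 35.0 to 42.4%. All of these lie below the median of the higher transcripts, so the difference leans on few loci. Whether it holds without them was not tested. CpG observed over expected was 0.209 in higher and 0.169 in lower transcripts (other names 0.222 and 0.220). The motif GGACT, one form of the sequence in which m6A is set, was sought on the transcript strand and stood at 0.897 per kb in higher and 0.847 per kb in lower transcripts, against 0.890 and 0.882 for other names. A match is a run of letters and not a modified site. Repeats, as soft-masked bases, made up 25.7% of higher and 27.4% of lower transcripts, against 24.2% and 21.2% for other names.

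R-loop peaks lay on few of the transcripts. RNH peaks, less those that met a control peak, overlapped 48 and 15 of the 173 Gm and Rik transcripts in TKO libraries 1 and 2, and 41 and 18 in WT libraries 1 and 2. As shares these were 27.7% and 8.67% in TKO and 23.7% and 10.4% in WT, where the shares over all listed transcripts were 35.1%, 10.0%, 33.6% and 9.26% in the same order. The first library of each genotype had 24937 (TKO) and 21929 (WT) peaks and the second 6010 and 6166, so replicates of 1 genotype differed more than the genotypes. The mean share in TKO minus that in WT was 1.16 percentage points (two-sided exact permutation test of 2 against 2 libraries, p = 1.00; the smallest p this design allows is 0.33).

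Gm and Rik transcripts were shorter, with a median of 7290 bp against 11057.5 bp for other names, and per length the order turned. Peaks per 100 kb of listed transcript numbered 2.39 and 0.73 in TKO and 1.97 and 0.77 in WT for Gm and Rik names, against 1.87, 0.44, 1.78 and 0.40 for other names. The number was higher for Gm and Rik names in all 4 libraries, whereas their share of transcripts with a peak was lower in 3 of the 4. That order did not hold for lower transcripts alone in TKO, where Gm and Rik names had 1.40 and 0.200 peaks per 100 kb, against 1.49 and 0.255 for other names. Lower intergenic transcripts reversed it in all 4 libraries (0.998 and 0.200 against 1.54 and 0.315 in TKO, 1.20 and 0.399 against 2.03 and 0.542 in WT). Higher gene transcripts reversed it in WT library 1 only (1.42 against 1.61), and higher intergenic ones in none. Lower transcripts made up 1001.27 of 2592.23 kb for Gm and Rik names and 88367.7 of 145255 kb for other names. The part of this in the pooled order was not tested. Over all classes, more of the higher than of the lower Gm and Rik transcripts held a peak: 33.6% against 17.5% and 11.8% against 3.17% in TKO, 26.4% against 19.0% and 10.9% against 9.52% in WT. Among gene transcripts this order was seen in TKO but not in WT, with 24.3% of the higher against 24.0% of the lower in WT library 1 and 5.41% against 8.00% in WT library 2. Per 100 kb, higher Gm and Rik transcripts held more peaks than lower ones in all 4 libraries (3.02 against 1.40 and 1.07 against 0.200 in TKO, 2.20 against 1.60 and 0.880 against 0.599 in WT). So did those of other names (2.45 against 1.49 and 0.715 against 0.255 in TKO, 2.09 against 1.58 and 0.469 against 0.362 in WT). The order per length is thus not particular to Gm and Rik names. By share, other names had a peak on 32.6% of higher against 39.5% of lower and 10.8% against 9.04% in TKO. In WT it was 29.0% against 41.3% and 7.42% against 11.9%. By share, other names thus had that order in TKO library 2 only.

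At the starts of the genes whose names the entries carry, peaks were scarcer than for the other listed names. Having a name in the table does not mean that the gene changed: a gene transcript was listed for 48 of the 109 genes matched in RefSeq and for 1945 of 3329 of other names. Of the 109 genes, 35.8% and 10.1% had a peak within 1 kb of a start in TKO and 28.4% and 5.50% in WT. The shares over all RefSeq genes were 33.5%, 9.52%, 30.0% and 7.63%, and over 3329 genes of other names in the table they were 62.1%, 15.4%, 54.7% and 12.1%. The Gm and Rik shares were thus near those of all genes, and below those of the other listed names in 4 of 4 libraries, by a mean of 16.1 percentage points (two-sided exact sign-flip test over 4 libraries, p = 0.125, the smallest it can give). The order was the same among genes with a single annotated start, 28.8%, 5.77%, 19.2% and 3.85% of 52 against 53.9%, 13.98%, 46.1% and 9.90% of 980. With only the genes whose gene transcript was listed, a setting added after the values were seen, the shares were 41.7%, 6.25%, 29.2% and 0% of 48 (a count of 0 allows up to 6.25%) against 60.2%, 12.6%, 52.5% and 10.6% of 1945, lower again in 4 of 4 libraries. TKO exceeded WT by 5.96 percentage points over the 109 genes (exact permutation test, p = 0.67).

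CG content went with the peaks. Of 99 promoters of 89 Gm and Rik genes in the RefSeq table, the 37 with a peak within 1 kb in any library held a median of 19 CG dinucleotides and the 62 without one a median of 4, where the median over all promoters was 7. The motif GGGCGG, read on both strands, was in 51.4% of the promoters with a peak and 17.7% of those without (all promoters 35.7%), and TATAAA in 5.41% and 16.1% (all promoters 13.6%). GGGCGG itself contains a CG.

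Starts with a peak in all 4 libraries numbered 3: 0610009B22Rik, Spring1 and Catspere2 (Gm16432), an auxiliary part of the sperm calcium channel. At 0610009B22Rik, whose promoter is shown above, the fold enrichment over background in the authors' deposited lists was 4.82 and 5.47 in TKO and 4.98 and 4.91 in WT. At Spring1 it was 4.22 and 4.89 in TKO and 3.55 and 3.96 in WT, and at Catspere2 5.02 and 4.19 in TKO and 4.22 and 4.03 in WT. TKO and WT values overlapped at 0610009B22Rik and at Catspere2, and at Spring1 both TKO values lay above both WT values. Gm5148 alone had a peak in both libraries of WT (3.81 and 3.90) and in neither of TKO. Its WT peaks did not overlap each other, with summits at -131 bp and 371 bp from the start (minus is upstream). Gm5148 is also the name under which 7 higher intergenic transcripts were listed, while its gene transcript was not listed. The first of the 7 runs across the gene start on the other strand, and both WT peaks lie within it. No gene had the reverse pattern, and 65 of the 109 had no peak in any library.

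Of the 173 listed transcripts themselves, 7 from 5 names held a peak in all 4 libraries (4.05%), where 3.30% of all listed transcripts did. Each of the 7 was higher in TKO cheRNA, against 58.2% of the 182 such transcripts of other names, but they are few and not separate: both entries of D630039A03Rik overlap and share their peaks. They were the bidirectional transcript of 0610009B22Rik (log2 1.04), gene and antisense transcripts of Gm6792, now Epp13 (1.39 and 1.59), intergenic transcripts of Gm7030 (1.14), D630039A03Rik (1.97) and 2610301B20Rik (2.08), and the 5′ side of D630039A03Rik (3.50). The strongest fold enrichment was at D630039A03Rik in WT library 2, with 5.51, against 3.70 in the other WT library and 3.42 and 4.18 in TKO. The largest cheRNA changes were not among them: no transcript of 2300002M23Rik or Radx is in this group.

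**Figure D5:**
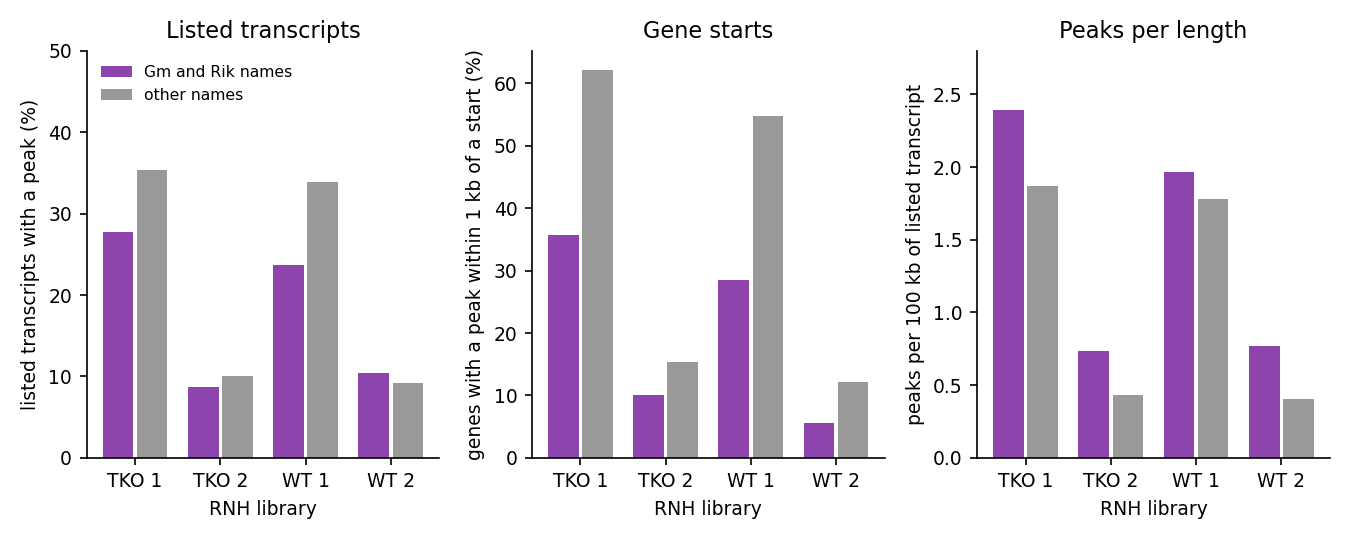
For each RNH library (TKO 1, TKO 2, WT 1, WT 2) bars compare Gm and Rik names (purple) with other names (grey): the percent of listed transcripts with a peak, the percent of genes with a peak within 1 kb of a start, and peaks per 100 kb of listed transcript. At starts Gm and Rik names are lower in every library, 35.8% against 62.1% in TKO 1, while per length they are higher in every library, 2.39 against 1.87 in TKO 1.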

How the data were processed

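Of the 32 samples, values came from 3 TKO and 3 WT cheRNA samples and, per genotype, from 2 RNH libraries and 1 MNase-only library of MapR; samples of the other assays were not analysed here. Replicate numbers come from the labels. The submitters' processing notes name mm10, BWA and MACS2 for MapR, and TopHat2, DESeq2, BWA, bedtools and SAMtools for cheRNA; the version and step of each, and the control library behind the peaks, stand as not given in the sources used here. For cheRNA the authors deposited 1 table of log2 fold changes between genotypes, with no value per sample; its sign was multiplied by -1 as described with the H1 genes. The deposited MapR files are peak lists, 1 per library, with a fold enrichment (a ratio over local background), a −log10 p and −log10 q value and a score. No counts or depths are in these files, so depth is unknown and p-values over libraries measure only the spread between them.

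The members and all lists were chosen with earlier results of these data known. Names were matched to RefSeq on GRCm38.p6 and to GENCODE M21; no file coordinate passed a chromosome end of that build. Peaks that overlapped an MNase-only peak of either genotype were removed, and an overlap of at least 1 bp counted. Starts are annotated RefSeq transcript starts with 1 kb on both sides. Shares carry exact 95% Clopper-Pearson intervals, which cover sampling of transcripts only; 2 against 2 libraries were compared by exact permutation tests. GC content, CpG observed over expected, GGACT and soft-masked bases were read from the RefSeq genome over each listed interval. Named are the 10 highest and 10 lowest transcripts, names with the most entries, the extremes of each class, annotated type and clone group, genes with peaks in 1 genotype, and transcripts with peaks in all 4 libraries. Also named, with values already seen, were renamed genes, histone variant genes, X chromosome entries and the microRNA host. Alternatives were a 4-fold minimum, other units and classes, left-out chromosomes, and other peak thresholds, list lengths, overlaps and libraries. Overlap, naming and permutation code was tested on simulated intervals. Python 3.11.15, pandas 2.3.3, SciPy 1.17.1 and samtools 1.23.1 were used.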

Additional observations from a re-analysis of the deposited data

How the results depend on the processing

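Direction of the Gm and Rik transcripts stayed inside its interval (55.9 to 70.8% higher) under all 9 alternatives, from 59.7% in gene transcripts alone to 70.5% without chromosome X. The position against other names varied more. It was 59.7% against 44.7% in gene transcripts, 69.8% against 69.4% at 4-fold or more, and 70.5% against 59.8% without chromosome X. Only in intergenic transcripts was the share below that of other names, 63.7% against 74.5%. Off chromosome X the intergenic share of Gm and Rik names was 71.6%. The median log2 left its interval (1.14 to 1.85) when transcripts under 4-fold were left out, by construction (2.77). The other alternatives gave 1.22 to 1.73. The difference in median GC content kept its direction in intergenic transcripts alone (4.67 percentage points) and in the first 1000 bases (2.65, where other names stood at -3.60). Neither setting left out chromosome X or A830018L16Rik.

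Peak comparisons between genotypes had no stable direction over the listed transcripts. At gene starts TKO exceeded WT in each setting that kept all 4 libraries, by 2.75 to 9.38 percentage points. The 9.38 came with only the genes whose gene transcript was listed, added later (exact permutation p = 0.67). With a stricter threshold (−log10 q of at least 5) the log2 ratio of transcripts with a peak and the difference in share were 0. The start difference there was 2.75 percentage points. With equal list lengths the share difference was -0.58 percentage points. The start difference was then 4.59 (exact permutation p = 0.33), with both TKO shares (13.8% and 10.1%) above both WT shares (9.17% and 5.50%). Leaving out each library in turn gave log2 ratios of -0.86 to 0.82, share differences of -8.38 to 10.7 and start differences of -6.88 to 18.8 percentage points: without TKO library 1 or WT library 2 both differences were negative, and without TKO library 2 or WT library 1 positive. Lists of unlike length were set against each other there: the first libraries had 24937 (TKO) and 21929 (WT) peaks, the second 6010 and 6166. With the replicate number as a block the values were -0.018, 1.16 and 5.96, with sign-flip p of 1.00, 1.00 and 0.50. With 2 pairs that test cannot give p under 0.50. The replicate numbers are not stated to pair the libraries, though deviations correlated at 0.44 over the 173 transcripts, both first libraries having more peaks. The cheRNA table has no value per sample, so no paired analysis or left-out sample was possible there. With 2 libraries per genotype the exact permutation test cannot give p under 0.33, and the cheRNA values have no error.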
